A study of Drosophila melanogaster with 2 samples.

Results

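Neurons of the larval Drosophila brain were sorted in silico into male and female cells by their roX transcripts, and the remaining genes were compared between the sexes. The cells came from droplet-based 3 prime single-cell RNA sequencing of L3 (late larval) brains (2 libraries, 1 per group). The MeOH library held methanol-fixed cells pooled from 7 inbred strains of the Drosophila Genetic Reference Panel (DGRP), DGRP-761, DGRP-639, DGRP-502, DGRP-409, DGRP-382, DGRP-136 and DGRP-45, and the deposited tables give the line of each cell. The fresh library held unfixed cells of a DGRP-551 based hybrid, so strain and fixation differed together between the libraries. The written protocol mentions methanol for each sample, and the groups follow the fixation label. No sample label gives the sex of the animals, the number of animals per line, or a genetic manipulation.

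Neurons were the cells whose deposited annotation was only a cluster number (other than clusters 1 and 31) or the name G-KC, which gave 3458 of the 5056 annotated cells. Among neurons with at least 3300 UMIs (unique molecular identifiers, 1 per captured transcript), a cell was called male with 5 or more UMIs of roX1 and roX2 together and female with 1 or fewer. In the MeOH library this gave 449 male and 335 female neurons, with 92 cells of 2 to 4 roX UMIs left out and 863 shallower neurons not used. In the fresh library it gave 929 male and 730 female neurons, with 60 cells between the thresholds and no shallower neuron. The 2443 classified neurons are described here. 11 cell barcodes occurred in both libraries. The members were thus chosen by measured roX counts, annotation and depth.

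The noncoding RNAs roX1 and roX2 are X-linked and are stable in male cells, where they join the Male-Specific Lethal (MSL) proteins in a complex that coats the single male X chromosome and raises its transcription. In female cells the RNA-binding protein Sex lethal (Sxl) blocks translation of msl-2 mRNA, so that the complex does not form, and Sxl also directs female splicing of transformer (tra). The Sxl gene is transcribed in both sexes, and male transcripts keep an exon with a stop codon. Counts from the 3 prime end of transcripts do not separate these splice forms.

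The roX counts fell into a low and a high mode in each library. The MeOH library had 133 neurons with 1 roX UMI and 66 with 2, against 7 with 4 and 8 with 5. The fresh library had 199 neurons with 1 roX UMI and 50 with 2, against 2 with 4 and 2 with 5. Few cells therefore lay at the male threshold, and more lay at the female one. The median male neuron had 18 roX UMIs in the MeOH library and 30 in the fresh library. In male neurons roX1 exceeded roX2, by 2.71 times in the MeOH library and by 2.49 times in the fresh library. These values chose the cells and are given as a description.

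**Figure D1:**
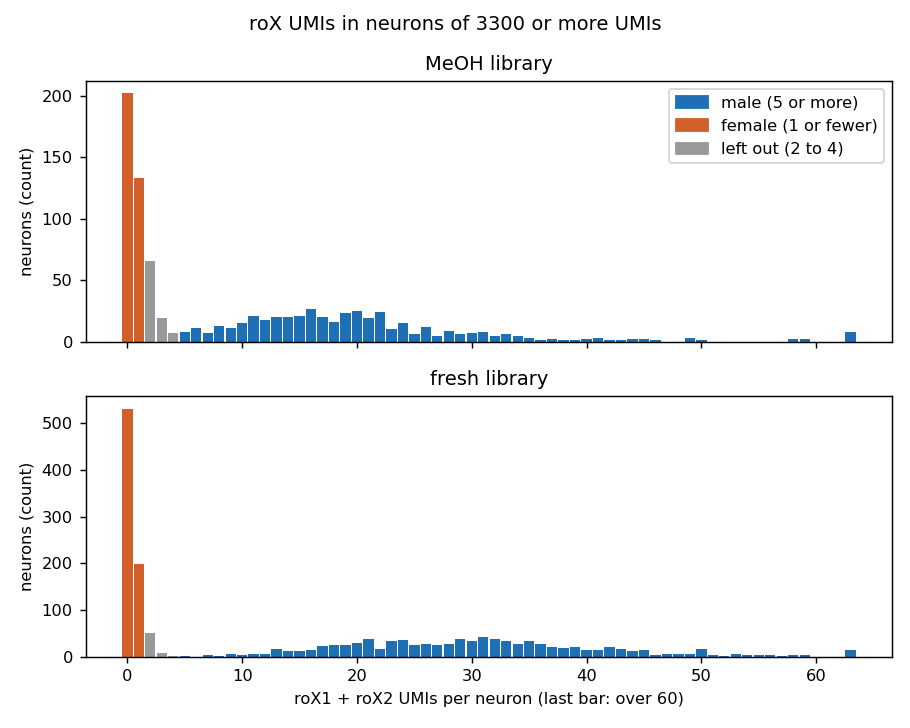
Number of neurons (y axis) with each count of roX1 and roX2 UMIs together (x axis), for the MeOH library above and the fresh library below. Blue bars are cells called male, orange bars cells called female and grey bars the 92 and 60 cells left out, which lie between a low and a high mode.

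Male roX levels differed between lines. In male neurons roX1 reached 3010 CPM (UMIs per 1000000 UMIs of the summed cells) in DGRP-639 and 1546 CPM in DGRP-136, and roX2 reached 1188 CPM in DGRP-45 and 747 CPM in DGRP-761. DGRP-136 also had the largest share of neurons between the thresholds, at 16.8%, against 0.952% in DGRP-502. Female neurons held 29.5 CPM of roX1 and 40.6 CPM of roX2 in the MeOH library, and 22.5 CPM and 11.9 CPM in the fresh library. In clusters with at least 20 classified neurons, the summed roX level of male cells spanned 2632 to 4495 CPM over 11 MeOH clusters and 2855 to 5419 CPM over 19 fresh clusters.

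The share of classified neurons called male was 57.3% in the MeOH library (exact Clopper-Pearson 95% interval 53.7% to 60.8%) and 56.0% in the fresh library (53.6% to 58.4%). Among lines it was lowest in DGRP-45, at 28.2%, and DGRP-382, at 28.9%, and highest in DGRP-502, at 80.8%. DGRP-136 had 39.9%, DGRP-761 54.4%, DGRP-639 71.7% and DGRP-409 75.7%. Every line had at least 13 male and 20 female neurons, and the summed UMIs per line and sex ran from 67680 to 612325. Intervals on counts cover counting error only.

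Both classes carried neuronal markers and little RNA of other cell types. The neuronal RNA-binding protein gene elav had 793 ± 52.3 CPM in male and 686 ± 90.3 CPM in female neurons (SD, n = 7 lines), and the synaptic vesicle gene nSyb had 400 ± 76.5 and 394 ± 35.3 CPM. The glial gene repo had 2.01 CPM in male and 4.98 CPM in female neurons, against 167 CPM in 180 cells annotated as glia. Other glial genes had higher means in male neurons, such as alrm with 12.97 and 6.62 CPM and Gs2 with 17.6 and 11.3 CPM. The 9 listed glial genes summed to 100 CPM in the median male line (18.5 to 168) and 76.5 CPM in the median female line (59.9 to 102), higher in male neurons in 5 of 7 lines. Markers of neural stem cells (neuroblasts) were uneven between the sexes in the MeOH library. The 8 listed neuroblast genes summed to 105 CPM in the median male line (46.2 to 138) and 38.5 CPM in the median female line (29.1 to 108), higher in male neurons in 6 of 7 lines. Of these, mira had 59 male against 12 female UMIs and CycE 30 against 4, while cells annotated as neuroblasts held 547 CPM of mira. In the fresh library the same sum was 31.9 CPM in male and 27.0 CPM in female neurons.

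The share of mature-like neurons and the depth did not pass a test over lines, although each did so under some other choices. Mature-like neurons (clusters 3 and 33 and the G-KC cells) made up 19.1 ± 14.9% of male and 24.1 ± 8.30% of female neurons (SD, n = 7 lines), with a difference of -5.02 ± 9.25 percentage points. The exact two-sided sign-flip permutation test over lines gave p = 0.203. Without DGRP-502 the difference was -8.19 points (exact permutation p = 0.03125, the smallest that 6 lines allow). The fresh shares were 11.2% and 10.3%. All 14 classified G-KC cells of the MeOH library were male, while the fresh library had 7 male and 9 female G-KC cells. The median depth was 4732 UMIs in male and 4765 in female neurons of the MeOH library, and 6407 and 6621.5 UMIs in the fresh library. The per-line log2 ratio of median depth averaged -0.07 ± 0.10 (exact permutation p = 0.188, adjusted p = 0.203 over both tests). With 7 lines the smallest p this test can give is 0.0156, which the depth ratio reached without the mature-like neurons (-0.08) and, with the opposite sign, at a minimum of 2000 UMIs (0.12).

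Y-linked genes offered no check of the sexes, since they had almost no UMIs. Over 113 Y-linked gene rows, male and female MeOH neurons had 1 UMI each among 2690327 and 1897123 UMIs, and fresh neurons had 1 and 0 UMIs among 7093068 and 5787744. A limit of 3 counts corresponds to 1.12 and 1.58 CPM in the MeOH library and to 0.423 and 0.518 CPM in the fresh library.

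Outside roX, few genes separated male from female neurons. With the line as a block, edgeR's quasi-likelihood test called 8 of 3501 genes at an adjusted p under 0.05, or 0.229%. 5 were higher in male neurons (0.143%) and 3 lower (0.0857%), and 338 genes (9.65%) had an unadjusted p under 0.05. The 8 genes were the noncoding RNAs CR45009, CR45388, CR44272 and CR46006, the ribosomal protein genes RpL35 and RpS14a, Sxl, and the vesicular monoamine transporter gene Vmat. 4 of the 8 lie on the X chromosome, as do 604 of the 3501 genes tested. 7 of the 8, all but CR46006 with a fresh log2 ratio of 0.00, kept their sign between the MeOH lines and fresh cells (87.5%), as did 56.1% of the 3493 genes not called. DESeq2 called 7 of the 8, without Vmat. The p-values measure the spread between lines of 1 pooled library.

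**Figure D2:**
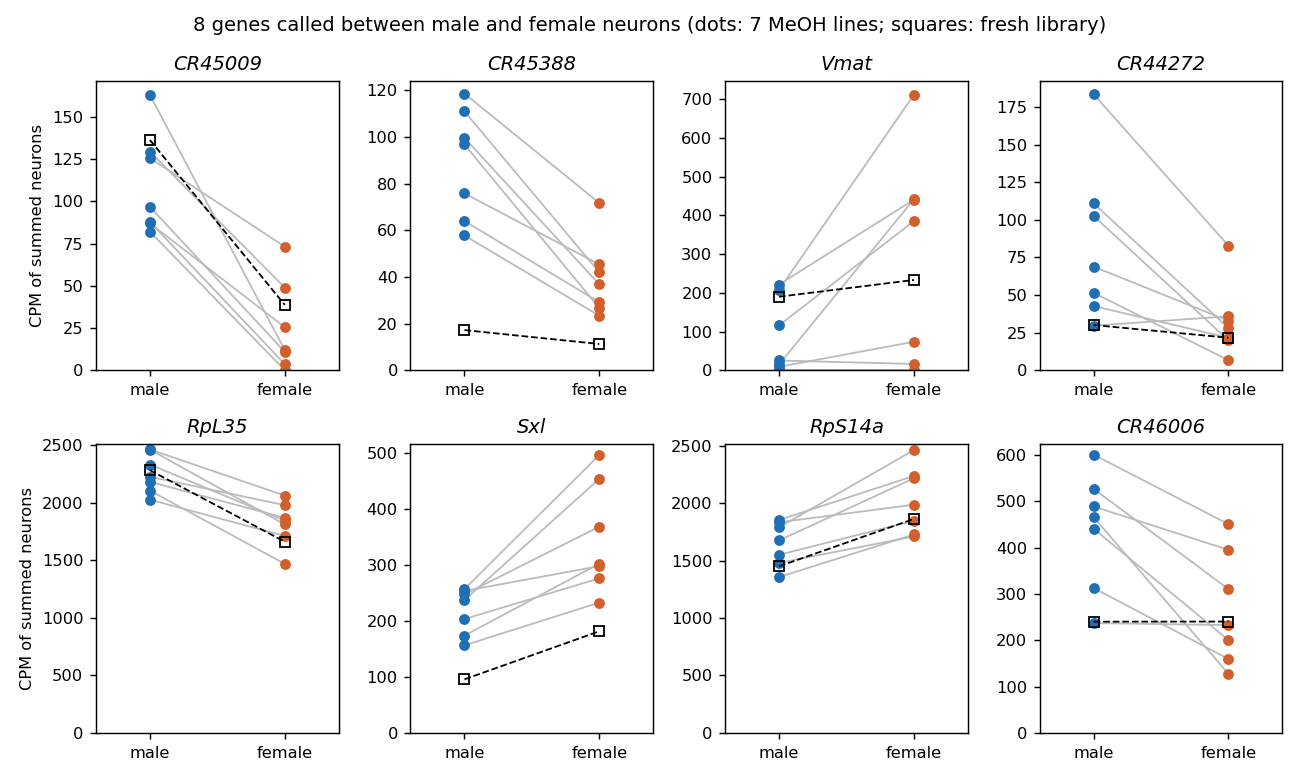
CPM of summed neurons (y axis, each from 0) for the 8 called genes, male left and female right. Blue and orange dots are the 7 MeOH lines, joined by line, and open squares joined by a dashed line are the fresh library; CR45009 is the called gene whose male and female lines do not overlap.

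Sxl, the switch gene of sex determination, fell in male neurons. It had 156, 237 and 257 CPM (lowest, median and highest line) in male neurons, against 233, 302 and 497 CPM in female neurons. Male values were lower in each of the 7 lines, although the ranges of the groups overlapped. The means were 218 ± 40.7 and 347 ± 97.2 CPM (SD, n = 7 lines), and edgeR gave a log2 difference of -0.63 ± 0.11 (SE; adjusted p = 0.0211), or 0.647 times the female level. The fresh library had 95.7 CPM in male and 182 CPM in female neurons, a log2 ratio of -0.92 (95% counting interval -1.07 to -0.78). Within the 13 fresh clusters with at least 20 neurons of each sex, Sxl was lower in male cells in 13 of 13. The gene spans X:7074550-7098053 on the minus strand of dm6. The call was lost when DGRP-409, DGRP-639 or DGRP-761 was left out, with log2 differences of -0.72 to -0.57 over all 7 omissions.

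ssx, the sister gene and paralog of Sxl, ran the other way without passing the test. It is described because of its values, which were seen before it was chosen. It had 55.5, 64.6 and 95.1 CPM (lowest, median and highest line) in male neurons and 18.4, 41.8 and 61.9 CPM in female neurons. Male values were higher in 7 of 7 lines, with a log2 difference of 0.74 ± 0.19 (SE; edgeR adjusted p = 0.113). In the fresh library ssx had 89.2 and 58.4 CPM (log2 0.61, interval 0.42 to 0.81) and was higher in male cells in 13 of 13 clusters. It spans X:1370580-1375257 on the plus strand.

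Of the 10 genes listed for dosage compensation, 6 were tested and 1 was called, Sxl, against 0.229% of all genes tested. The 6 had a median log2 difference of -0.00, against -0.01 over all genes tested. The subunit genes msl-1, msl-2, msl-3 and mof were below the count filter. msl-2, the subunit that Sxl represses in females, had 65 UMIs in male and 32 UMIs in female MeOH neurons, with a higher CPM in male cells in 6 of 7 lines. Fresh neurons had 147 and 68 UMIs (log2 0.82, interval 0.39 to 1.26), and male values were higher in 11 of 13 clusters. msl-1 had a fresh log2 ratio of 0.09, msl-3 of 0.03 and mof of 0.02, each with an interval that includes 0.

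The helicase gene mle, whose product remodels roX RNA, had a log2 difference of -0.53 ± 0.24 in the MeOH lines (edgeR adjusted p = 0.499) and 0.25 in the fresh library (interval 0.03 to 0.47), so the libraries differed in sign. Clamp, which encodes a zinc finger protein that recruits the complex to the X, had 0.44 ± 0.23 (adjusted p = 0.566) and 0.12. Unr, a co-repressor of msl-2 translation, had 1828 ± 136 CPM in male and 1820 ± 169 CPM in female neurons (log2 0.01 ± 0.06). The chromosomal kinase gene JIL-1 had 0.08 ± 0.12 on the same scale. The listed gene hrg had -0.02 ± 0.15. No role in dosage compensation is claimed for it here, although the counts and the median of that list include it.

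**Figure D3:**
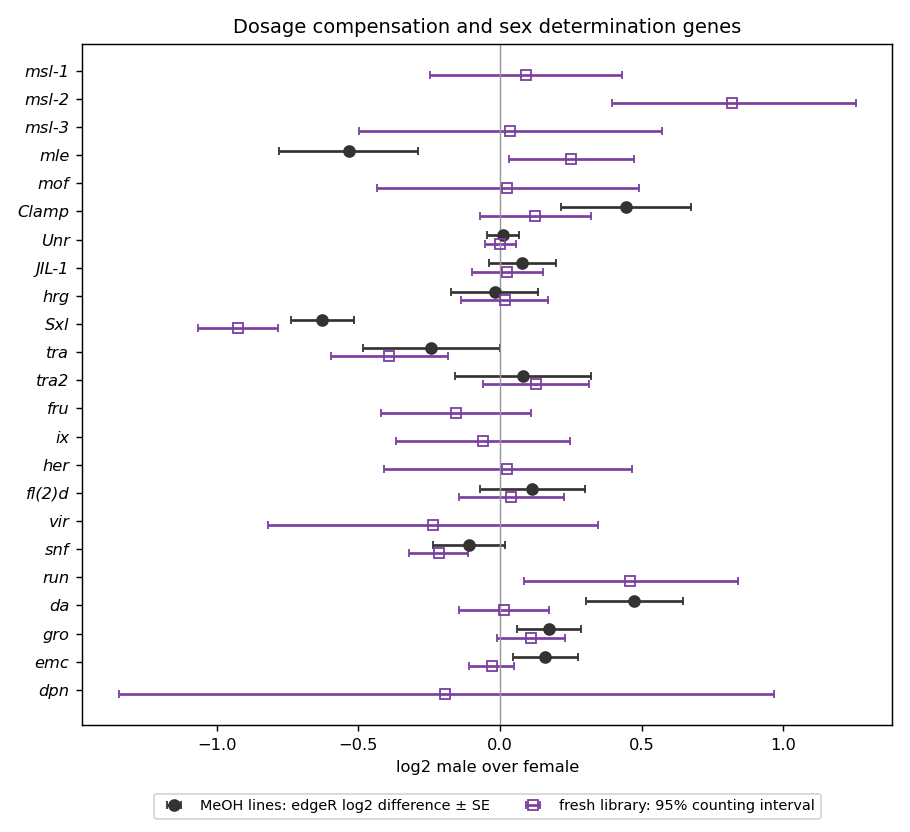
Log2 difference of male over female neurons (x axis) for members of the dosage compensation and sex determination lists with at least 20 UMIs over the MeOH lines (y axis). Filled circles are edgeR values ± SE from the fit to 7 MeOH lines, where the gene was tested. Open squares are fresh ratios with 95% counting intervals. Sxl lies at -0.63 and -0.92, and msl-2 at 0.82 in the fresh library.

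Among the 18 listed sex determination genes, 8 were tested and 1 was called, again Sxl, with a median log2 difference of 0.10. Over all genes tested, 0.229% were called. tra had 64.2 ± 27.0 CPM in male and 69.3 ± 19.3 CPM in female MeOH neurons (log2 -0.24 ± 0.24, edgeR adjusted p = 0.807) and 52.6 against 68.9 CPM in the fresh library (log2 -0.39, interval -0.60 to -0.18). The splicing factor gene snf had -0.11 ± 0.13 (adjusted p = 0.842) and a fresh ratio of -0.22. The helix-loop-helix gene da had 0.47 ± 0.17 (adjusted p = 0.365) and 0.01 in the fresh library. tra2 had 0.08, fl(2)d 0.11, gro 0.17 and emc 0.16, with adjusted p-values from 0.692 to 0.967. Of the genes below the filter, fru had 84 male and 88 female UMIs, ix 76 and 47, her 37 and 19, vir 38 and 23, run 34 and 34, and dpn 22 and 3. The male sums held 2690327 UMIs in all and the female sums 1897123. The fresh interval of run (0.08 to 0.84) lay above 0, and those of fru, ix, her, vir and dpn included 0.

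CR45009, annotated as the antisense RNA asRNA:CR45009, rose in male neurons with the largest fold difference among the called genes. It had 82.1, 96.8 and 163 CPM (lowest, median and highest line) in male neurons, against 0, 11.9 and 73.2 CPM in female neurons. Every male line was above every female line. In 3 of 3501 genes (0.0857%) the male and female lines did not overlap, in either direction. In DGRP-502 the female sum had 0 UMIs, where 47 were counted in male cells. The means were 110 ± 30.02 and 24.9 ± 26.9 CPM, with a log2 difference of 2.25 ± 0.35 (SE; edgeR adjusted p = 0.0192), or 4.76 times the female level. Fresh neurons had 136 CPM in male and 38.7 CPM in female neurons (log2 1.82, interval 1.61 to 2.03) and was higher in male cells in 13 of 13 clusters. The gene lies at X:23007672-23009452 on the plus strand and overlaps FucTC on the opposite strand, a protein-coding gene with 1 UMI over the lines. CR45009 was called in each of the 7 fits that left out a line. It was not called with cells matched on cluster (log2 2.01, edgeR adjusted p = 0.173) or at a minimum of 5000 UMIs (2.24, adjusted p = 0.164). Nor was it called without the line as a block (2.15, adjusted p = 0.0868).

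A pair of X-linked neighbours, CG32706 and CG6999, were also higher in male fresh neurons, with UMIs spread over many cells. Of 6064 genes with at least 100 UMIs in fresh neurons, 24 (0.396%) exceeded a log2 ratio of 1 in size when 10 CPM were added to each value, which lowers the ratios of rare genes, and in 17 of these a single cell held over 50% of the UMIs. In 3 of the 24 no cell held over 5%, and these 3 were CR45009, CG32706 and CG6999, all on the X. Without that addition, CG32706 had 90.8 CPM in male and 28.2 CPM in female fresh neurons (log2 1.69, interval 1.44 to 1.95) and was higher in male cells in 13 of 13 clusters. CG6999 had 52.3 and 18.7 CPM (log2 1.49, interval 1.17 to 1.81) and was higher in 12 clusters and lower in 0.

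In the MeOH lines neither neighbour passed the test in the reported comparison. At a minimum of 2000 UMIs both were called, CG32706 at log2 1.11 (edgeR adjusted p = 0.0403) and CG6999 at 1.20 (adjusted p = 0.00742). CG32706 was also called with no filter on low counts (0.86, adjusted p = 0.0338). The values that follow are from the reported comparison. CG32706 had 33.4, 88.5 and 133 CPM (lowest, median and highest line) in male neurons and 18.4, 35.9 and 66.5 CPM in female neurons, higher in 6 of 7 lines (log2 0.87 ± 0.28, edgeR adjusted p = 0.272). CG6999 had 33.2, 55.7 and 88.9 CPM against 14.0, 27.6 and 59.7 CPM, higher in 7 of 7 lines (log2 0.95 ± 0.23, adjusted p = 0.108). The genes lie 293 bases apart on the plus strand, at X:9087129-9088073 and X:9088367-9089314. The preceding gene on that strand, CG32708 at X:9085932-9086864, had 28.3 CPM in male and 33.9 CPM in female fresh neurons (log2 -0.26, interval -0.55 to 0.03) and 59 male against 62 female UMIs in the MeOH lines. These 3 genes were chosen after their values were seen, and shared reads between them were not tested.

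RpL35, which encodes a protein of the large ribosomal subunit, rose in male neurons. It had 2025, 2224 and 2461 CPM (lowest, median and highest line) in male neurons and 1468, 1842 and 2061 CPM in female neurons. Male values were higher in 7 of 7 lines, and the ranges overlapped at their ends. edgeR gave a log2 difference of 0.31 ± 0.05 (SE; adjusted p = 0.0192), or 1.24 times the female level. The fresh library had 2281 and 1660 CPM (log2 0.46, interval 0.42 to 0.50), with male cells higher in 13 of 13 clusters. The gene lies at X:5672401-5673547 on the plus strand. The call was lost without DGRP-136, DGRP-409, DGRP-639 or DGRP-761, at log2 differences of 0.28 to 0.33 over the omissions.

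RpS14a, a gene of the small ribosomal subunit, fell in male neurons. It had 1356, 1675 and 1853 CPM (lowest, median and highest line) in male neurons and 1709, 1986 and 2461 CPM in female neurons, lower in 7 of 7 lines (log2 -0.30 ± 0.05 SE, edgeR adjusted p = 0.0250). The fresh library had 1450 and 1862 CPM (log2 -0.36, interval -0.40 to -0.32), lower in male cells in 13 of 13 clusters. Its neighbour RpS14b, chosen after its values were seen, is a nearly identical copy 220 bases away, so the split of reads between them is uncertain. RpS14b had a log2 difference of -0.25 ± 0.06 (adjusted p = 0.108) and -0.29 in the fresh library. The summed pair had 2502 ± 255 CPM in male and 3031 ± 336 CPM in female neurons (SD, n = 7 lines), lower in male cells in 7 of 7 lines, and 2674 and 3355 CPM in the fresh library. RpS14a was not called without DGRP-136, DGRP-409, DGRP-639 or DGRP-761.

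No other ribosomal protein gene was called. Of 82 tested genes of cytoplasmic ribosomal proteins, a list added after the calls were seen, 1 was called higher and 1 lower in male neurons, with 15 at an unadjusted p under 0.05 and a median log2 difference of -0.05. Over all 3501 genes, 0.229% were called and 9.65% had an unadjusted p under 0.05. 64 of the 82 were below 0, against 1785 of all 3501 genes. The 14 X-linked members had a median of -0.02 and the 68 autosomal members -0.05.

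**Figure D4:**
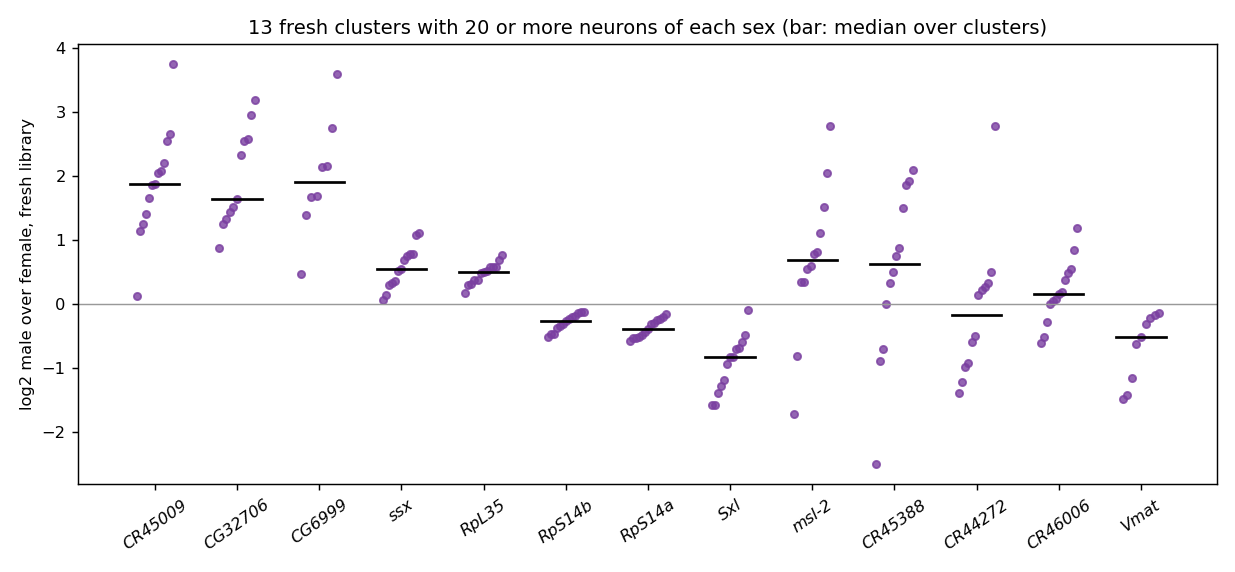
Log2 ratio of male over female CPM (y axis) for named genes (x axis) in the 13 fresh clusters with at least 20 neurons of each sex. Each point is a cluster with UMIs of the gene in both sexes, sorted by value (11 clusters for CG32706, 8 for CG6999 and 9 for Vmat, whose 3 male-higher clusters had no female UMIs), and the bar is their median; CR45009, ssx and RpL35 lie above 0 in all 13 clusters and Sxl, RpS14a and RpS14b below 0 in all 13.

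The other called noncoding RNAs are autosomal, and their differences were less even between the libraries. CR45388, whose annotation contains mir-315, had 57.8, 96.8 and 119 CPM (lowest, median and highest line) in male neurons and 23.3, 36.8 and 71.7 CPM in female neurons, higher in 7 of 7 lines (log2 1.17 ± 0.19 SE, edgeR adjusted p = 0.0192). The fresh values were 17.2 and 11.2 CPM (log2 0.61, interval 0.17 to 1.07), higher in male cells in 9 clusters and lower in 4. CR46006, whose annotation contains mir-276a, had 237, 466 and 601 CPM in male and 128, 233 and 451 CPM in female lines, higher in 7 of 7 (log2 0.83 ± 0.16, adjusted p = 0.0324). Its fresh values were 240 and 241 CPM, a log2 ratio of 0.00 (interval -0.10 to 0.10), with male cells higher in 10 clusters and lower in 3 (median 0.15). In the MeOH lines its difference was 0.39 with cells matched on cluster and 0.32 at a minimum of 2000 UMIs, and it was not called in either.

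CR44272 had 29.6, 68.9 and 183 CPM (lowest, median and highest line) in male neurons and 6.65, 28.0 and 82.8 CPM in female neurons. Male values were higher in 6 of 7 lines, with DGRP-382 lower (log2 1.44 ± 0.25 SE, edgeR adjusted p = 0.0192). Its fresh values were 30.03 and 21.6 CPM (log2 0.48, interval 0.15 to 0.81), higher in male cells in 6 clusters and lower in 7. The loci are 3L:18852573-18861363 and 3L:10323501-10367450 on the plus strand and 2R:7992196-7992567 on the minus strand.

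These 3 noncoding RNAs were more abundant in the male MeOH cells that are not neurons by the rule than in male neurons. Such male MeOH cells had 549 CPM of CR45388, 805 CPM of CR46006 and 163 CPM of CR44272, against 89.1, 439 and 84.2 CPM on average in male neurons. The neuroblast gene sum, given above, was likewise higher in male neurons in 6 of 7 lines of the MeOH library, and its part in these differences was not tested. Among neurons without the mature-like clusters CR44272 was called, while CR45388 had a log2 difference of 0.97 (adjusted p = 0.0864) and CR46006 of 0.73 (adjusted p = 0.0518). CR45388 was not called without DGRP-136 or DGRP-409, CR44272 without DGRP-409 or DGRP-761, and CR46006 without DGRP-136, DGRP-409, DGRP-639 or DGRP-761. With cells thinned to 3300 UMIs and sex by the unthinned count, 2 of the 3 were not called. These were CR45388 (log2 1.02, edgeR adjusted p = 0.0831) and CR46006 (0.63, adjusted p = 0.0784).

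Vmat, which loads monoamines into synaptic vesicles, was called lower in male neurons on few cells. Its median was 25.1 CPM in male lines (0 to 221) and 385 CPM in female lines (0 to 712), with a log2 difference of -1.58 ± 0.26 (SE; edgeR adjusted p = 0.0192). It was lower in male neurons in 5 lines, higher in DGRP-136 and at 0 UMIs in both sexes of DGRP-45. Male against female values were 14.8 and 442 CPM in DGRP-382 but 25.1 and 16.2 CPM in DGRP-136. The SE of the fit does not describe this spread between lines. UMIs came from 43 MeOH neurons, and 1 female neuron held 14.1% of them. The fresh library had 190 and 233 CPM (log2 -0.30, interval -0.41 to -0.19). DESeq2 did not call it (adjusted p = 0.467), nor did the fit without DGRP-409 or DGRP-761.

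The 2 genes next in order of p did not pass. nkd, a feedback inhibitor of Wnt signalling, had 459 ± 174 CPM in male and 278 ± 98.1 CPM in female neurons (log2 0.76 ± 0.16, edgeR adjusted p = 0.0676), and 192 and 163 CPM in the fresh library. FMRFaR, the receptor of FMRFamide neuropeptides, had 28.9 ± 12.8 and 68.8 ± 20.5 CPM without overlap between the groups (log2 -1.35 ± 0.28, adjusted p = 0.0734), and 16.8 and 19.5 CPM in the fresh library.

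The X chromosome as a whole held nearly the same share of transcripts in both sexes. X-linked genes other than roX took 16.4 ± 0.572% of UMIs in male and 16.6 ± 0.265% in female neurons (SD, n = 7 lines). The log2 ratio averaged -0.02 ± 0.05, and was lower in male neurons in 6 of 7 lines (exact two-sided sign-flip permutation p = 0.422, adjusted p = 0.547 over 7 tests, for 6 arms and the mitochondrial genome). DGRP-136, with 17.5% in male and 16.5% in female neurons, was the line that ran the other way. Without DGRP-136 the mean was -0.03 with an exact permutation p of 0.03125, the smallest that 6 lines can give. The fresh shares were 15.03% and 15.5%, a log2 ratio of -0.04. The other arms also did not pass, with adjusted p-values of 0.547 to 0.984.

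Gene by gene, the differences of X-linked genes were centred near 0, as on the other arms. Of 604 X-linked genes tested, 4 were called (0.662%), against 0.229% of all genes tested. CR45009 and RpL35 were higher and Sxl and RpS14a lower in male neurons. 78 of the 604 had an edgeR unadjusted p under 0.05, against 338 of all 3501 genes (9.65%). The median log2 difference of the 604 was 0.00, with quartiles of -0.18 and 0.14. Arm medians on the other chromosomes ran from -0.02 to 0.02. In the fresh library the median was -0.01 over 1036 X-linked genes and 0.02 over all 6064 genes. By expression level, X-linked genes at low, middle and high levels (equal groups of all genes) had medians of 0.04, 0.03 and -0.03, and autosomal genes 0.01, -0.01 and -0.02. Leaving out the 10 most abundant X-linked genes, which held 26.3% of X-linked UMIs, gave a mean log2 ratio of the share of -0.01 (exact permutation p = 0.406), a choice made after seeing the data.

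**Figure D5:**
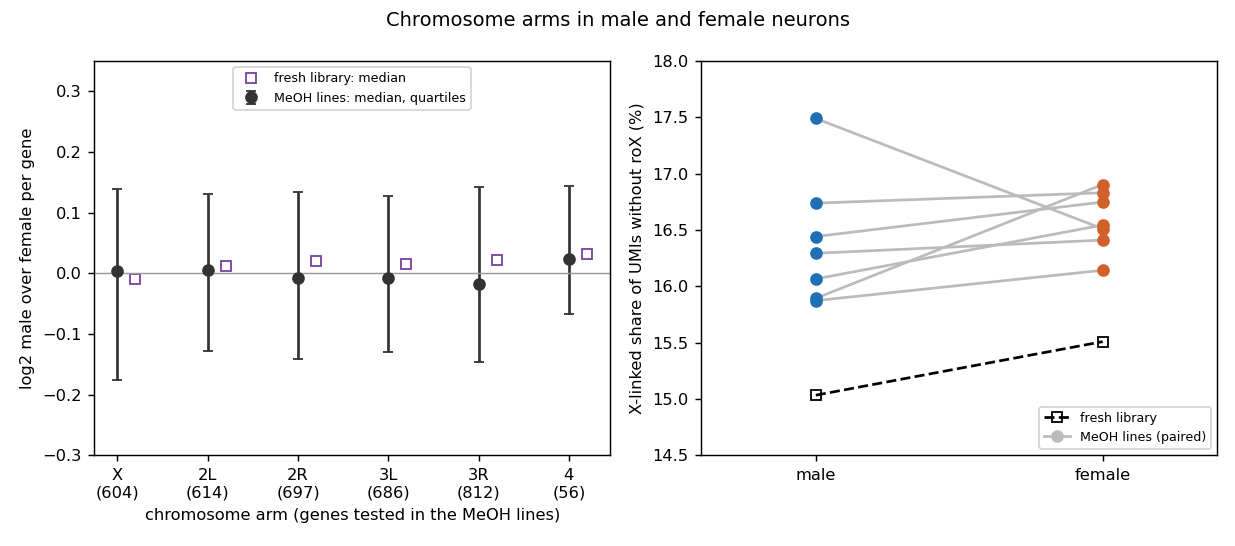
Left, median log2 difference of male over female neurons per gene (y axis) by chromosome arm (x axis, with the number of genes tested); circles with quartile bars are the MeOH lines and open squares the fresh medians, all near 0. Right, X-linked share of UMIs without roX in percent (y axis, not from 0) in male and female neurons, as dots joined by line and squares for the fresh library; 6 of 7 lines are lower in male neurons.

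Genes of neuronal maturation, birth time and hormone response gave 1 call. Of 17 synaptic and mature neuron genes tested, 1 was called, Vmat, and the median log2 difference was -0.07. Over all 3501 genes tested, 0.229% were called and 9.65% had an edgeR unadjusted p under 0.05. The release factor gene unc-13 had 0.02, the glutamate transporter gene VGlut 0.04 and the cadherin gene CadN 0.11. Of 10 listed genes of immature neurons, 6 were tested and 0 called, with 0.01 for pros, 0.07 for jim and 0.04 for hdc, the most abundant members. In the fresh library pros had 0.22, jim 0.11 and hdc 0.01. The MeOH lines gave the values that follow. All 6 were above 0, and nerfin-1 had 0.58 (edgeR unadjusted p = 0.0145, adjusted p = 0.375), the 1 member with an unadjusted p under 0.05. Below the filter, tap had 64 male and 10 female UMIs, dap 74 and 23, Hey 33 and 8, and Thor 33 and 15. The male sums held more UMIs in all, 2690327 against 1897123. In the fresh library the log2 ratios were 0.30 for tap, -0.14 for dap, 0.20 for Hey and 0.26 for Thor. 0 of the 8 birth-time genes were called and 3 had an unadjusted p under 0.05. These 3 were chinmo at 0.30 ± 0.08 (edgeR adjusted p = 0.179), the X-linked gene mamo at -0.22 ± 0.07 (adjusted p = 0.270) and Imp at -0.23. In the fresh library chinmo had 0.05, mamo -0.27 and Imp -0.14. Syp had 0.14 in the MeOH lines. DESeq2 likewise called no member of the immature neuron and birth-time lists.

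Of 11 listed ecdysone response genes, 9 were tested and 0 called, and 4 had an unadjusted p under 0.05, as did 9.65% of all genes tested. These 4 were EcR at -0.41, Eip74EF at -0.50, Sox14 and Hr4 at 0.46. In the fresh library EcR had 0.01, Eip74EF 0.06, Sox14 -0.07 and Hr4 -0.43, so of the 4 only Sox14 kept its sign. The fresh ratio of br was -0.26. In the MeOH lines the values were as follows. Sox14 had -0.41 ± 0.11 (edgeR adjusted p = 0.156) and 0.04 without the mature-like neurons, br 0.30 ± 0.16 and Eip75B -0.07 ± 0.05. Of 11 heat shock genes, 7 were tested and 0 called, with 3 at an unadjusted p under 0.05. These 3 were Hsp68 at 0.68 ± 0.20 (edgeR adjusted p = 0.201), Hsp26 at 0.36 ± 0.08 (adjusted p = 0.103) and Hsp23 at -0.23 ± 0.06. Hsp27 had -0.01 ± 0.05. 1 of 9 glial genes, nrv2 at 0.19, and 1 of 8 neuroblast genes, stg at 0.75 ± 0.37, passed the count filter, and neither was called. The glial genes Gs2 and alrm had 50 and 48 male against 23 and 17 female UMIs. No gene of the fat body and haemocyte list passed the filter, and Lsp1gamma, Yp3 and Yp2 had 2, 1 and 0 male against 3, 3 and 2 female UMIs.

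Neuropeptide genes gave most of the largest ratios of the fresh library, and in most of these a single cell held nearly all UMIs. Ilp5, Ilp3, Ilp2 and Ilp1, which encode insulin-like peptides, and AstC were lower in male neurons, at 6.20 against 949 CPM for Ilp5. A single female neuron held 98.8% of the Ilp5 UMIs. Dsk, ITP, Crz, SIFa and the odorant-binding protein gene Obp69a were higher, at 502 against 2.76 CPM for Dsk, where 1 male neuron held 99.1% of the UMIs. For SIFa the top cell held 33.5%. In the MeOH lines 3 of 19 neuropeptide genes passed the filter and 0 were called. AstA had 1504 male and 33 female UMIs there, Hug 1029 and 11, and Pdf 21 and 1338. These genes did not pass the filter, and the share of their UMIs in the top cell is not given here. In the fresh library AstA had 157 male and 41 female UMIs, Hug 1 and 0, and Pdf 0 and 2.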

How the data were processed

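Raw UMI counts per gene and cell barcode were deposited for both libraries. They were made with Cell Ranger and Seurat on build dm6, per the submitters' processing notes, with versions and gene annotation not given in the sources used here. The deposited metadata table gives each cell's library, line, annotation and UMI count, and the line of all 2715 MeOH cells matched the demultiplexed matrix. Its percent of mitochondrial UMIs, its natural log values of 1 gene and its embedding coordinates, a score without a unit, were made by the authors and entered no test. Which cells were filtered before deposit is not given in the sources used here, and no doublets were called.

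Gene positions came from Ensembl 115, matched by symbol (13848 rows) or synonym (3528 rows), and 97 of 17473 rows, with 1.00% of UMIs, were unmatched. Counts were summed per line and sex without roX1 and roX2. edgeR 4.0.16 (R 4.3.3) with TMM scaling, its default filter on low counts and the line as a block gave log2 differences of male over female neurons, with Benjamini-Hochberg adjusted p-values called under 0.05. Each SE is the size of the log2 difference over the square root of edgeR's F statistic. It is not the spread of the per-line ratios. DESeq2 1.42.0 was an alternative. The fresh library is 1 sample and has no test, and its ratios have exact 95% counting intervals. CPM divides by all UMIs of the sum without roX. The test was also run on counts simulated with the same dispersion for every gene. There it called 55.1% of genes at a true log2 of 1, 48.6% at -1 and 0.0935% of unchanged genes. These rates describe the simulated counts and need not hold for genes measured in few cells, such as Vmat.

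Male and female sums of 1 line share a genotype, which is where the pairing comes from. Their deviations from the sex means correlated at 0.0967 to 0.344, and each of the 7 lines correlated best with itself. All lines were processed in 1 library, and the labels do not give animals per line, so p-values measure the spread between lines.

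The named genes are those called, the next by p up to 10, members of the dosage compensation, sex determination and Y-linked lists with at least 20 UMIs, the called members and up to 3 most abundant others of each further list, and the 5 highest and 5 lowest fresh ratios. RpS14b, ssx, CG32706, CG6999 and CG32708 were added after their values were seen. The classes and lists were chosen with earlier results of these data known. Python 3.11.15 with scipy 1.17.1 gave the permutation tests and intervals. Alternatives covered scaling, filter, block, thinning of cells to 3300 UMIs, UMI minimum, roX thresholds, neuron definition, cluster matching and each line left out.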

Additional observations from a re-analysis of the deposited data

Results flagged for a closer look

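4 of 47 sets of 7 per-line values held a line far from the others (Dixon's 95% criterion), where chance marks about 1 set in 20. The share of mature-like neurons, male minus female, was 14.0 percentage points in DGRP-502 and between -13.6 and -1.92 in the other lines. The per-line log2 difference of mamo was -0.73 in DGRP-409 and between -0.24 and 0.01 elsewhere. That of br was -1.58 in DGRP-382 and between 0.02 and 0.85 elsewhere. That of Hsp27 was -0.37 in DGRP-382, the line with the fewest male neurons (13), and between -0.04 and 0.16 elsewhere.

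CR46006 differed between the libraries. Its log2 difference was 0.00 in the fresh library (-0.0016, with 10 CPM added to each value), while the 7 MeOH lines ran from 0.03 to 1.79. No test of this difference was made, and strain and fixation cannot be told apart in it.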

How the results depend on the processing

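The number of called genes depended on the processing more than their directions did. The 8 called genes kept their sign in every alternative in which they were tested. Some named genes outside the 8 were called under another choice, among them nkd, FMRFaR, CG32706, CG6999, RpS14b, Hsp23 and Hsp26. 7 to 11 genes were called with DESeq2, library size alone, DESeq2 size factors, thinning by the unthinned sex, 2 to 4 roX UMIs counted as female, or the deepest cells left out, and 6 with the strict roX rule (male 10 or more, female 0). These were not always the same genes. Of the 8, DESeq2 called 7, thinning by the unthinned sex 6, leaving out the deepest cells 6 and the strict rule 4. Thinning with sex by the thinned count also kept 6 of the 8. No filter on low counts gave 106 calls, thinning with sex by the thinned count 16, a minimum of 2000 UMIs 19, a minimum of 5000 UMIs 5 (5 lines, none of the 8), clusters 1 and 31 counted as neurons 223, and neurons without the mature-like clusters 4. Cells matched on cluster gave 0 calls by edgeR in 6 lines, with 133 genes at an unadjusted p under 0.05. Leaving out a line gave 1 (without DGRP-409) to 21 calls (without DGRP-382). Without DGRP-639 there were 7 calls, with 4 of the 8 genes among them. The causes were not tested.

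Without the replicate block, that is without pairing the sexes by line, edgeR called 0 genes and 179 had an unadjusted p under 0.05.

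The male share of MeOH neurons was 52.6% thinned with sex by the thinned count, 51.4% at 2000 UMIs, 66.4% with the strict rule, 51.3% with 2 to 4 roX UMIs as female and 66.9% with clusters 1 and 31, and that of fresh neurons was 63.3% with the strict rule. The mature-like difference was -12.2 points with clusters 1 and 31 (exact permutation p = 0.0156) and -8.19 (without DGRP-502, p = 0.03125) to -3.58 with a line left out. The log2 ratio of median depth was 0.118 at 2000 UMIs (exact permutation p = 0.0156), 0.108 at 5000 UMIs, 0.145 with clusters 1 and 31, -0.0822 without mature-like neurons (p = 0.0156), and -0.0846 to -0.0430 with a line left out. The log2 ratio of the X share ran from -0.0334 (without DGRP-136) to -0.00473 with a line left out, and the median X-linked gene from -0.0419 to 0.00885 with a line left out and from -0.0312 to 0.0325 (no filter on low counts) in the other alternatives. Y-linked UMIs were 2 in female neurons at 2000 UMIs, 0 in male neurons without the mature-like clusters and 0 to 1 with a line left out. The fresh X ratio was -0.0518 both without mature-like neurons and without the deepest cells. Depth limits genes such as msl-2, which lies under the count filter.

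Some genes that were not called changed sign, as log2 differences. Sox14, at -0.41 in the reported comparison, was not near 0, and had 0.036 without mature-like neurons.  With no filter on low counts, Unr had -0.0081 and pros -0.0057. At a minimum of 2000 UMIs, Unr had -0.037, fl(2)d -0.012, unc-13 -0.022, pros -0.25, jim -0.19 and hdc -0.023. Without mature-like neurons, Unr had -0.070, tra2 -0.13, fl(2)d -0.039, CadN -0.013, pros -0.16, jim -0.067 and Sox14 0.036. With cells matched on cluster, Unr had -0.015, gro -0.085, emc -0.027, pros -0.11, jim -0.017 and hdc -0.011. Thinned, with sex by the unthinned count, JIL-1 had -0.066, fl(2)d -0.085 and gro -0.041. Thinned, with sex by the thinned count, JIL-1 had -0.12. Without the deepest cells, JIL-1 had -0.0019, tra2 -0.14, fl(2)d -0.041 and Hsp27 0.0076. With DESeq2, hrg had 0.011. With clusters 1 and 31 as neurons, hrg had 0.11, unc-13 -0.11, VGlut -0.19 and CadN -0.0080. With the strict roX rule, snf had 0.011, unc-13 -0.045, VGlut -0.24 and Hsp27 0.011. At a minimum of 5000 UMIs, unc-13 had -0.079, VGlut -0.029, pros -0.14, Eip75B 0.035 and Hsp27 0.028. Without the replicate block, VGlut had -0.12, pros -0.054 and Hsp27 0.0032. With 2 to 4 roX UMIs as female, pros had -0.15 and jim -0.10. With each line left out in turn, the log2 differences ran as follows in genes that changed sign: Unr -0.021 to 0.036, JIL-1 -0.011 to 0.17, hrg -0.12 to 0.12, tra2 -0.16 to 0.25, unc-13 -0.0091 to 0.11, VGlut -0.060 to 0.18, pros -0.10 to 0.16, jim -0.022 to 0.17, hdc -0.0032 to 0.12 and Hsp27 -0.040 to 0.032.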

Other observations

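Cells of at least 3300 UMIs that are not neurons by the rule gave other values for several genes, a comparison added after seeing the data and given without a test. They comprised 440 male and 129 female cells in the MeOH library (77.3% male) and 410 and 149 in the fresh library (73.3% male). CR45009 had 28.4 CPM in male and 3.08 CPM in female MeOH cells, below its level in neurons, and 30 against 5 UMIs in the fresh library. CG32706 had 22.2 and 4.11 CPM in MeOH cells and 10.7 and 8.27 CPM in fresh cells, and CG6999 had 12.4 and 2.06 CPM and 5.13 and 3.76 CPM.

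msl-2 had log2 ratios of 2.38 in MeOH and 1.58 in fresh cells outside the neurons, and ssx of 0.54 and 0.94. Sxl had 0.29 and -0.31, so that its sign differed between the libraries there. RpS14a had -0.15 and -0.28, and RpL35 -0.09 and -0.04, where neurons had 0.31 and 0.46.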
